A study of Mus musculus with 10 samples.

Results

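SGC0946 is a small molecule that blocks the histone methyltransferase Dot1l. Its effect was measured in RH-RAS lines, mouse leukemia stem cells transformed ex vivo by joint expression of mutant DNMT3A (R882H) and mutant NRAS (G12D). The members of the comparison are 4 of the series' 10 arrays, chosen by their labels: RH-RAS lines 1 and 3 given 1 µM SGC0946 for 4 days, and the same lines left untreated. Untreated RH-RAS lines 2 and 4 were grown without the inhibitor and have no treated partner. The lines are described as independently derived, and each condition of a line is 1 array. Treated and untreated cells alike carried both mutant genes and grew in medium with serum and stem cell factor. For the promoters that drive the mutant genes, a vehicle control and the mouse strain, nothing is given in the sources used here. The remaining arrays, 1 MLL-AF9 line and 3 NUP98-JARID1A lines, entered the filter on low values, and the NUP98-JARID1A lines also the estimate of the spread.

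Dot1l adds methyl groups to a lysine on the surface of the nucleosome, on histone H3 within the transcribed part of genes. The mark accompanies active transcription and fades slowly once the enzyme is blocked, so inhibitors are usually given for days. In MLL-rearranged leukemia Dot1l is drawn to fusion targets such as the Hoxa genes and Meis1, and its inhibition is known there for lowering those genes and raising myeloid differentiation genes. The values that follow go beyond these genes to metabolism, receptors, adhesion, signalling and transcription factors.

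Expression is given as log2 intensity of 1 probe set per gene, a scale on which 1 unit is a doubling. The 10 arrays had medians between 5.72 and 5.82 and maxima between 14.72 and 14.83. A change is the mean of treated minus untreated in lines 1 and 3, and the value after ± is its standard error from the limma fit (n = 2 pairs of arrays). A gene rose or fell where the limma p, adjusted by Benjamini-Hochberg over all 11993 genes tested, was under 0.05. Of these genes 844 passed (7.04%), 463 upward (3.86%) and 381 downward (3.18%). All 844 moved the same way in both lines, which the threshold itself favours, because disagreement between the pairs widens the error. Among those that rose, 299 changed at least 2-fold and 48 at least 8-fold, against 206 and 18 among those that fell. The median change over all genes tested was 0.02. In 814 of the 844 genes (96.4%) both treated arrays lay outside the range of the 4 untreated lines, as they did in 5758 of all genes tested (48.0%). The 40 gene lists below hold 847 genes, of which 785 had a probe set with 1 symbol and 711 passed the filter on low values; the rest were not analysed here. With only 2 pairs the calls need both of them: without line 1 or without line 3 no gene passed, although 1196 and 1140 genes then had an unadjusted limma p under 0.05. Of the 463 genes that rose, 33 were above the array median on both treated and none of the untreated RH-RAS arrays. In 15 of these the treated arrays were the only ones of all 10 above it, so that they passed the filter through the arrays where they were high. Of the genes described here Adgre1, Aif1, Arg2, Mrc1, Pik3r5, Rin2 and Tlr1 were among the 33, and they were above the median on 3 to 6 of the 10 arrays. Line 4 stood apart from the other untreated lines in many of the genes described. With line 4 as the only control, 318 genes passed, 214 upward (1.78% of those tested) and 104 downward (0.867%), of which 276 were among the 844.

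The transcript of the targeted enzyme itself did not pass the threshold. Dot1l measured 8.24, 8.24, 8.55 and 8.37 in untreated lines 1 to 4 and 8.49 and 8.42 in treated lines 1 and 3, a change of 0.06 ± 0.15 (adjusted p = 0.875). Treated and untreated arrays overlapped, so the array does not show the block of an enzyme, only what followed in RNA. As a reference point for the known response, Hoxa9 fell by 1.82 ± 0.1 (adjusted p = 0.00353) and Meis1 by 1.33 ± 0.16 (adjusted p = 0.0168). Another probe set of Meis1 changed by only -0.096.

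**Figure D1:**
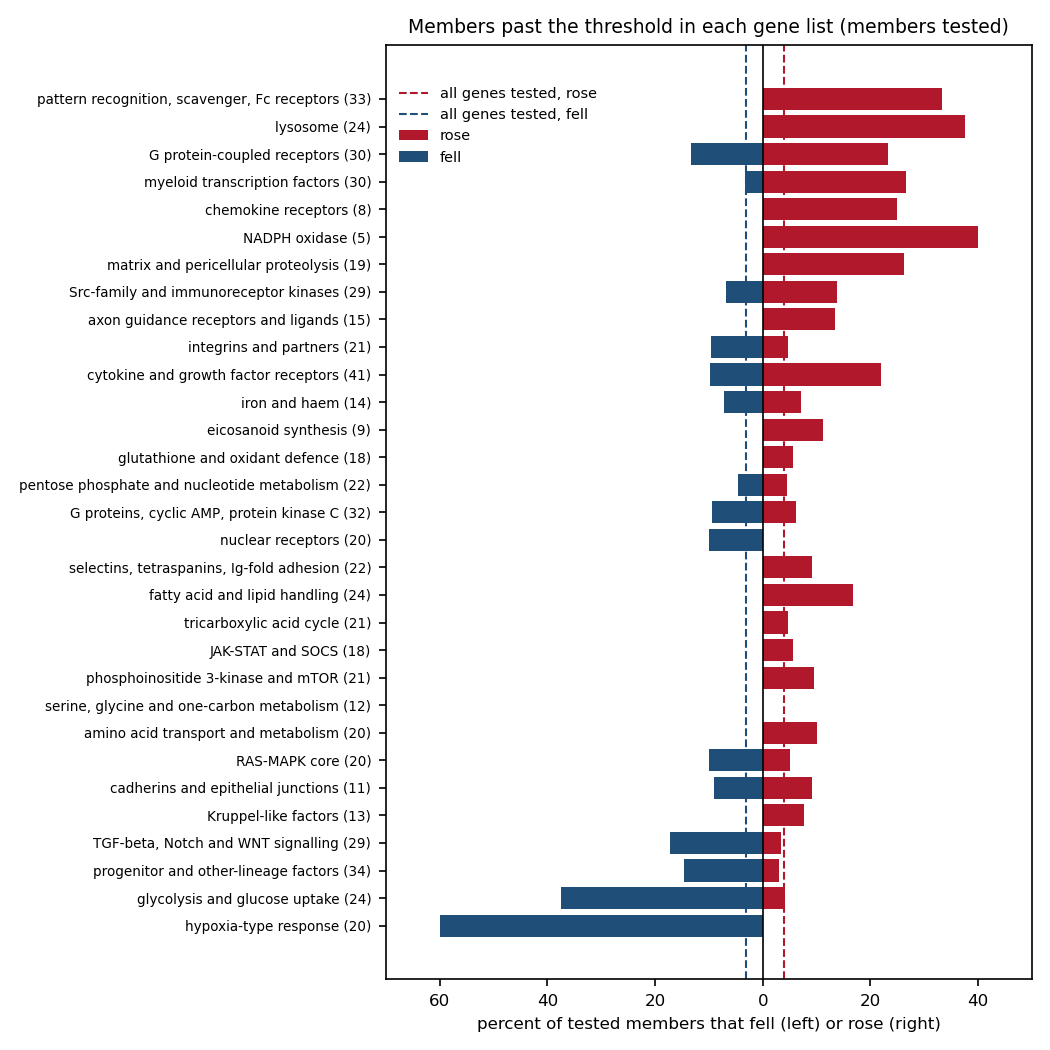
Percent of the tested members of each gene list that fell (left, blue) or rose (right, red) with SGC0946, with the number of members tested in brackets and lists ordered by their median change. Dashed lines mark the same percent over all 11993 genes tested (3.18% fell, 3.86% rose). The hypoxia-type list stands farthest to the left, with 12 of 20 members down, and the lysosome and pattern recognition lists have 9 of 24 and 11 of 33 members up.

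Promoters are shown for the genes with the largest changes, since a chromatin enzyme was blocked, and for the hypoxia-type and glycolysis genes described first. Each sequence is a RefSeq window of assembly GRCm38.p6 of 300 bases, most of it before the start of transcription, 5′ to 3′ on the gene's own strand. In Mrc1 and Dab2, the largest rises with an entry, capitals mark GAGGAA or its reverse complement, a core motif of the myeloid factor PU.1 that lies inside some other ETS motifs. Mrc1 lies at chr2:14229164-14229463 on the plus strand with 3 matches, and Dab2 at chr15:6299539-6299838 on the plus strand with 1.
Mrc1: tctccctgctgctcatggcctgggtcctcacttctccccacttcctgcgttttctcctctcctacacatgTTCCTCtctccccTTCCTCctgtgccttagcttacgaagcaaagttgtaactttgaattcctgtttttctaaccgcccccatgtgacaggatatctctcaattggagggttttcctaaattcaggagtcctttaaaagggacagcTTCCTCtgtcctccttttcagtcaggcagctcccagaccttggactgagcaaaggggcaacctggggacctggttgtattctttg
Dab2: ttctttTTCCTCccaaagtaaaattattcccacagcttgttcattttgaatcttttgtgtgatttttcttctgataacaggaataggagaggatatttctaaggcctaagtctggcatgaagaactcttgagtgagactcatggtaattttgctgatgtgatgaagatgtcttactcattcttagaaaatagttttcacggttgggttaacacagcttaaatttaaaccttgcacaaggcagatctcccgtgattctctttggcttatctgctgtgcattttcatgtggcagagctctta
In the other genes capitals mark ACGTG or GCGTG on either strand, the cores of hypoxia response elements, of which ACGTG also lies inside the E-box CACGTG. Gzma, granzyme A of cytotoxic lymphocytes, had the largest fall and lies at chr13:113100932-113101231 on the minus strand with 0 matches. Ak4, the next largest, lies at chr4:101419039-101419338 on the plus strand with 2. Egln3 (chr12:54203825-54204124, minus strand, 1 match), Pdk1 (chr2:71872974-71873273, plus strand, 2 matches) and Slc2a1 (chr4:119108495-119108794, plus strand, 2 matches) were added after their values were seen.
Gzma: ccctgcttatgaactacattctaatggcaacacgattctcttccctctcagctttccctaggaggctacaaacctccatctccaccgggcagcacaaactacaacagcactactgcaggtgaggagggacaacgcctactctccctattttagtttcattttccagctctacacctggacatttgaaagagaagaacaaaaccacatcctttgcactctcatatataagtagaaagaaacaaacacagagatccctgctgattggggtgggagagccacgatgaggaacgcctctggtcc
Ak4: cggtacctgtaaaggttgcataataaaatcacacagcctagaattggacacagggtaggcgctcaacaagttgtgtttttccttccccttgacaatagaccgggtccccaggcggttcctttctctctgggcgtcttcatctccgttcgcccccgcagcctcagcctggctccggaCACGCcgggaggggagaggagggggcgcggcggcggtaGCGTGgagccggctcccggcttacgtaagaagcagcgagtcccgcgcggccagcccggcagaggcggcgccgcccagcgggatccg
Egln3: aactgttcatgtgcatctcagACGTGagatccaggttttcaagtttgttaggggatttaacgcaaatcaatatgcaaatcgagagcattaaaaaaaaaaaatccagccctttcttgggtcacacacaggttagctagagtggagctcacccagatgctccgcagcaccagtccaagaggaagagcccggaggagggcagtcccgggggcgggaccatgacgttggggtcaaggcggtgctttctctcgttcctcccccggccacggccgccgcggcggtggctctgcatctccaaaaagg
Pdk1: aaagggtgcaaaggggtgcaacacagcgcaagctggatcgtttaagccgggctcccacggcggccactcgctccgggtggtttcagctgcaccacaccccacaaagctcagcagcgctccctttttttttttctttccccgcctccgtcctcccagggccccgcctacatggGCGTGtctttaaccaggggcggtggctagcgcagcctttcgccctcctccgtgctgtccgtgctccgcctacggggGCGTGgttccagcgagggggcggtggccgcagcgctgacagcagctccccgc
Slc2a1: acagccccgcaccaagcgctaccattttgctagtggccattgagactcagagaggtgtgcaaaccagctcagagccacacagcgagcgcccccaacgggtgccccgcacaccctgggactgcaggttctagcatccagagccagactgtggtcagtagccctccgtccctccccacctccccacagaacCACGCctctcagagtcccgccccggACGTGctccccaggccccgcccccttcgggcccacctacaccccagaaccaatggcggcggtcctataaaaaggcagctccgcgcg
The printed promoters differ to the eye in their CG pairs, but not by direction alone. The ratio of observed to expected CpG was 0.167 in Mrc1, 0.188 in Dab2 and 0.306 in Gzma, the largest fall, against 0.934 in Ak4. It was 0.715 in Egln3, 0.772 in Pdk1 and 0.605 in Slc2a1, the genes added after their values were seen. Capitals mark a different motif in the rises and in the falls. The core motif of PU.1 was marked only in Mrc1 and Dab2. It is also present, unmarked, in the printed windows of Gzma and Egln3, which fell, so the capitals do not separate rises from falls.

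Over all genes, promoters rich in CpG were less frequent among the largest rises and, by a smaller margin, among the largest falls. These values are given as a description without a test. A promoter entry was found for 9731 of the 11993 genes tested, and the CpG ratio was 0.6 or more in 70.4% of them. That share was 52.2% of 387 promoters of genes that rose and 72.0% of 293 of genes that fell. Among genes that rose at least 4-fold it was 29.7% of 91 promoters, with a median ratio of 0.355 against 0.761 over all genes tested, and among genes that fell at least 4-fold it was 47.6% of 42. GAGGAA was found in 26.7% of all these promoters, in 35.4% of those that rose and in 39.6% of those that rose at least 4-fold. It was found in 25.3% of those that fell and in 21.4% of those that fell at least 4-fold. ACGTG or GCGTG was found in 62.0% of all promoters and in 80.0% of the 20 promoters of hypoxia-type and glycolysis genes that fell, where 95.0% had a CpG ratio of 0.6 or more. CpG-rich windows hold these CG-containing motifs more often by composition alone, and a match is not a measured site.

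**Figure D2:**
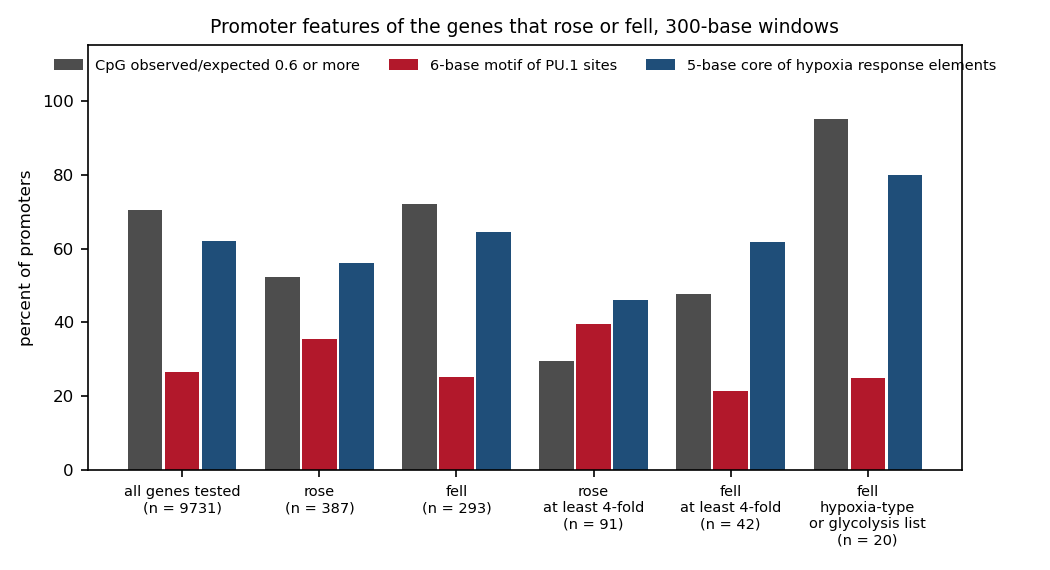
Percent of promoter windows of 300 bases with a CpG ratio of 0.6 or more (grey), with the 6-base motif of PU.1 sites (red) and with the 5-base core of hypoxia response elements (blue), for all genes tested and for the genes that rose or fell, with the number of promoters under each set. The grey bar is 70.4% over all genes tested, 29.7% for genes that rose at least 4-fold and 47.6% for genes that fell at least 4-fold.

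Most genes of the hypoxia response fell. These are genes that hypoxia-inducible factors switch on when oxygen is short, and that take part in oxygen sensing, glycolysis, mitochondrial turnover and collagen hydroxylation. Of 20 tested, 12 fell, 0 rose and 8 did not pass, so that 60.0% passed, against 7.04% of all genes tested. The median change was -1.29, and 18 of 20 were lower in both lines. Ak4, a mitochondrial adenylate kinase, measured 10.38, 10.05, 10.32 and 7.96 in untreated lines 1 to 4 and 5.55 and 5.69 in treated lines 1 and 3. It fell by 4.73 ± 0.22, or 26.6-fold (adjusted p = 0.00249), although the 5 probe sets of the gene gave changes from -5.05 to -0.04. Both treated arrays were far below every untreated line, and line 4 lay between. Stc2, a secreted stanniocalcin, measured 10.29, 10.06, 10.49 and 8.0 in untreated lines 1 to 4 and 6.27 and 6.34 in treated lines 1 and 3, a fall of 4.09 ± 0.25 (17-fold, adjusted p = 0.00439), with probe sets from -4.09 to -1.1. Egln3, a prolyl hydroxylase that marks hypoxia-inducible factor for destruction and is itself induced by it, measured 12.39, 12.26, 12.41 and 11.33 in untreated lines 1 to 4 and 9.44 and 9.31 in treated lines 1 and 3. Its fall of 3.02 ± 0.25 (8.14-fold, adjusted p = 0.00795) came out alike in its 2 probe sets.

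The remaining hypoxia-type genes that fell changed by less, in the same order of lines. Bnip3, a receptor for the removal of mitochondria, measured 13.46, 13.34, 13.54 and 12.22 in untreated lines 1 to 4 and 11.47 and 11.32 in treated lines 1 and 3 and fell by 2.11 ± 0.14 (adjusted p = 0.00504). Ankrd37 fell by 2.52 ± 0.36 (adjusted p = 0.0249). The collagen prolyl hydroxylase subunit P4ha1 fell by 1.29 ± 0.1 (adjusted p = 0.00754) and P4ha2 by 2.5 ± 0.42 (adjusted p = 0.0353, and 0.0643 without NUP98-JARID1A line 3). Kdm3a, a histone demethylase that needs oxygen, fell by 1.61 ± 0.13 (adjusted p = 0.00738). The factors themselves did not pass: Hif1a changed by -0.11 ± 0.17 (adjusted p = 0.782) and Epas1 by 0.01 ± 0.13 (adjusted p = 0.987). Their treated and untreated arrays overlapped, and the arrays do not measure protein. Vegfa, the vascular growth factor, was outside the threshold, with a change of -0.71 ± 0.19 (adjusted p = 0.101).

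Glycolysis genes were lower along most of the pathway. Of 24 tested, 9 fell and 1 rose (41.7%, against 7.04% of all genes tested). The median change was -0.7, and 21 of 24 were lower in both lines. Pdk1, the kinase that inhibits pyruvate dehydrogenase and so keeps pyruvate from the tricarboxylic acid cycle, measured 11.24, 11.14, 11.52 and 10.06 in untreated lines 1 to 4 and 9.37 and 9.32 in treated lines 1 and 3 and fell by 2.03 ± 0.12 (4.1-fold, adjusted p = 0.00408). The glucose transporter Slc2a1 measured 12.03, 12.001, 12.17 and 10.99 in untreated lines 1 to 4 and 10.45 and 10.57 in treated lines 1 and 3 and fell by 1.59 ± 0.11 (3.01-fold, adjusted p = 0.0059). Slc2a3, a second transporter, measured 12.83, 12.51, 12.96 and 11.48 in untreated lines 1 to 4 and 11.1 and 10.95 in treated lines 1 and 3 and fell by 1.88 ± 0.21 (adjusted p = 0.0156). In all of these the treated arrays lay below all untreated lines, and line 4 was the lowest untreated line. The enzymes of the pathway fell by less: the phosphofructokinase subunit Pfkl by 1.38 ± 0.11 (adjusted p = 0.00745), hexokinase Hk2 by 1.21 ± 0.15 (adjusted p = 0.019), pyruvate kinase Pkm by 0.82 ± 0.1 (adjusted p = 0.0189) and phosphoglycerate kinase Pgk1 by 0.77 ± 0.11 (adjusted p = 0.0265). Ldha, the lactate dehydrogenase subunit, was just outside the threshold, with a change of -0.54 ± 0.11 (adjusted p = 0.0594).

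One transporter went against the others. Slc2a6, a glucose transporter family member found in leukocytes and on lysosomes, measured 6.48, 6.48, 6.33 and 6.11 in untreated lines 1 to 4 and 8.09 and 8.22 in treated lines 1 and 3 and rose by 1.75 ± 0.21 (3.36-fold, adjusted p = 0.0168). Large changes with a wide error did not pass: Eno2, a neuronal-type enolase, changed by -2.68 ± 0.74 (adjusted p = 0.104) and the aldolase Aldoc by -2.54 ± 0.79 (adjusted p = 0.136). Both were lower in each line, and their spread came from the NUP98-JARID1A lines, whose SD was 1.14 for Eno2 and 1.25 for Aldoc.

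Untreated line 4 moves with both lists. Its median difference from lines 1 to 3 was -0.63 in the glycolysis list and -0.81 in the hypoxia-type list, against 0.01 over all genes tested. Pkm in line 4, at 12.65, equalled the treated arrays at 12.65 and 12.63. With line 4 as the only control, the median change was -0.15 for glycolysis, where 0 genes fell in limma (2 lower at an unadjusted p under 0.05) and 1 rose, and -0.42 for the hypoxia-type list, where 4 fell. In that comparison Ak4 changed by -2.35 (adjusted p = 0.00887), Egln3 by -1.96 (adjusted p = 0.015) and Pdk1 by -0.71 (adjusted p = 0.0687). The part of line-to-line variation in these falls was not tested.

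**Figure D3:**
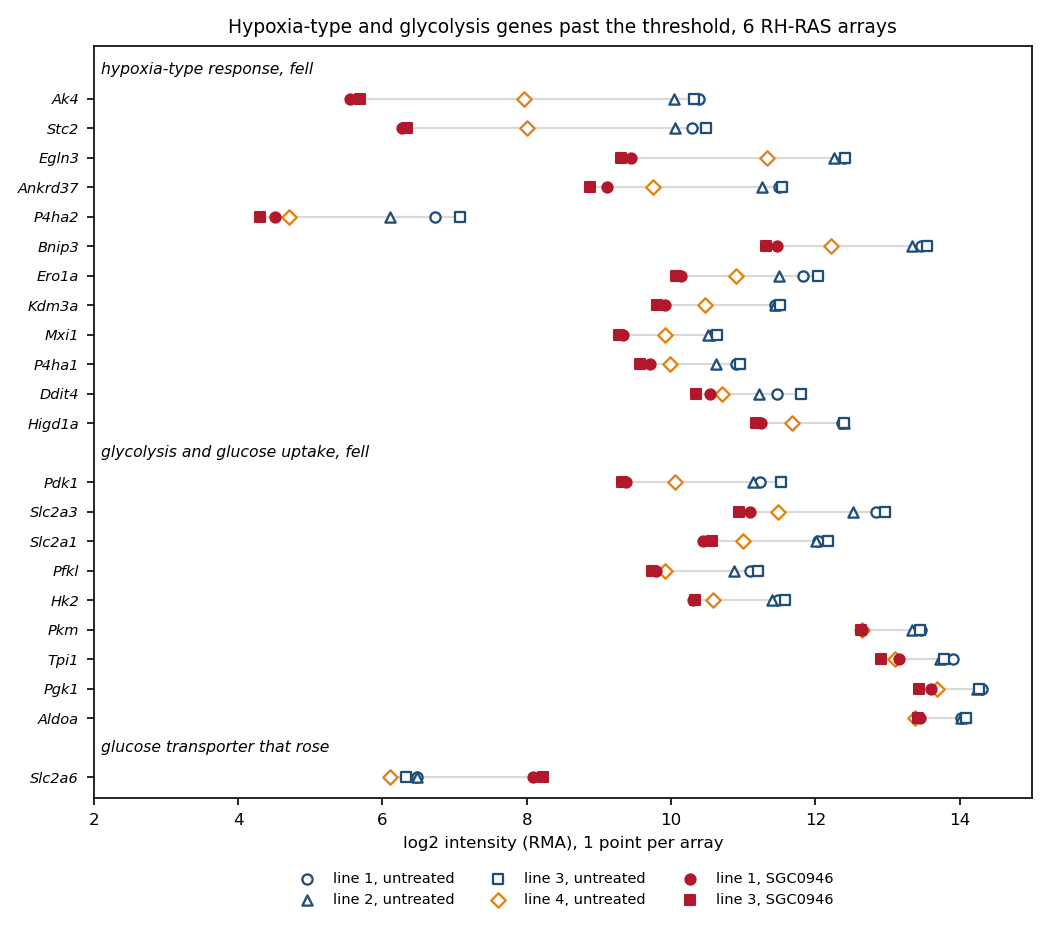
Log2 intensity of the hypoxia-type and glycolysis genes past the threshold, 1 row per gene and 1 point per array: open symbols are untreated lines 1 to 4 (line 4 in orange), filled red symbols are lines 1 and 3 with SGC0946. Ak4 sits between 7.96 and 10.38 untreated, with line 4 nearest to the treated arrays at 5.55 and 5.69. Slc2a6 alone moves to the right, and its untreated line 4, at 6.11, lies farthest from the treated arrays.

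In 4 lists of other central metabolism 0.0% to 10.0% of the members passed, against 7.04% of all genes tested. In the tricarboxylic acid cycle 1 of 21 genes rose, Fh1, the fumarate hydratase, by 0.82 ± 0.09 (adjusted p = 0.0147), and 0 fell. Of 12 serine, glycine and one-carbon genes 0 passed in limma, with 1 at an unadjusted p under 0.05, 0 in the fit without the line as a block and 3 in the fit of the RH-RAS arrays alone. Among 22 pentose phosphate and nucleotide genes Impdh1, which makes the guanine nucleotide precursor, fell by 0.85 ± 0.13 (adjusted p = 0.0263) and Samhd1, which degrades deoxynucleotides, rose by 0.9 ± 0.16 (adjusted p = 0.0407, and 0.0831 with probe sets averaged). Of 20 amino acid genes 2 rose and 0 fell. Kynu, a tryptophan-degrading kynureninase, rose by 1.52 ± 0.16 (adjusted p = 0.0132). Arg2, the mitochondrial arginase, measured 4.17, 4.24, 4.23 and 4.91 in untreated lines 1 to 4 and 7.75 and 8.31 in treated lines 1 and 3 and rose by 3.83 ± 0.67 (adjusted p = 0.0381, and 0.0577 without NUP98-JARID1A line 2), from a level near the bottom of the scale where RMA compresses differences.

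Of 9 eicosanoid genes 1 rose and 0 fell, of 14 iron and haem genes 1 rose and 1 fell, and of 18 glutathione and oxidant defence genes 1 rose and 0 fell. These are 11.1%, 14.3% and 5.56% of the members, against 7.04% of all genes tested. Of 24 lipid genes 4 rose and 0 fell (16.7%). Among those that rose were the lysosomal acid lipase Lipa, by 2.21 ± 0.4 (adjusted p = 0.0412), and the cholesterol exporter Abcg1, by 1.51 ± 0.26 (adjusted p = 0.0368). Both lost the call without NUP98-JARID1A line 2 (adjusted p = 0.0633 and 0.0567), and Lipa also with probe sets averaged (0.0798). Alox5ap, the partner protein of the leukotriene-forming lipoxygenase, measured 11.36, 11.33, 11.42 and 11.57 in untreated lines 1 to 4 and 12.74 and 12.76 in treated lines 1 and 3 and rose by 1.36 ± 0.14 (adjusted p = 0.0124). Tfrc, the transferrin receptor through which dividing cells take up iron, measured 13.32, 13.32, 13.26 and 12.79 in untreated lines 1 to 4 and 12.09 and 12.05 in treated lines 1 and 3 and fell by 1.22 ± 0.15 (adjusted p = 0.0172), with all 6 probe sets lower. The rise in the glutathione list was that of the glutathione synthetase Gss, by 0.59 ± 0.1 (adjusted p = 0.0318, and 0.0663 with probe sets averaged). Hadh, an enzyme of mitochondrial fatty acid oxidation and one of the 20 largest falls, fell by 2.93 ± 0.21 (adjusted p = 0.0059), with 3 probe sets between -2.93 and -0.28.

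The lysosome genes that passed all rose. Of 24 tested, 9 rose and 0 fell (37.5%, against 7.04% of all genes tested). The median change was 0.86, and 22 of 24 were higher in both lines. Hexa, a hexosaminidase subunit, measured 10.01, 10.15, 9.77 and 11.04 in untreated lines 1 to 4 and 11.86 and 11.79 in treated lines 1 and 3 and rose by 1.94 ± 0.13 (3.83-fold, adjusted p = 0.00544). The cathepsin Ctsz measured 11.68, 11.72, 11.72 and 12.31 in untreated lines 1 to 4 and 13.41 and 13.5 in treated lines 1 and 3 and rose by 1.76 ± 0.11 (adjusted p = 0.00412). The proteases Ctsb and Ctss rose by 2.1 ± 0.21 (adjusted p = 0.0113) and 2.02 ± 0.31 (adjusted p = 0.0289), the lysosomal growth factor precursor Grn by 1.7 ± 0.13 (adjusted p = 0.00621) and the cholesterol carrier Npc1 by 1.29 ± 0.16 (adjusted p = 0.0191). In 21 of the 24 genes both treated arrays lay outside the range of the untreated lines, and line 4 was higher than lines 1 to 3 by a median of 0.23. Taking line 4 as the only control, the median was 0.79 and 5 genes rose. The count was 14 without the line as a block and 14 without NUP98-JARID1A line 1. Lgmn, the asparaginyl endopeptidase, had the largest change that did not pass, 2.16 ± 0.79 (adjusted p = 0.187).

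The phagocyte NADPH oxidase, which makes superoxide, had 5 subunits tested. Its catalytic subunit Cybb measured 7.06, 7.31, 6.97 and 7.92 in untreated lines 1 to 4 and 11.2 and 11.28 in treated lines 1 and 3 and rose by 4.22 ± 0.69 (18.7-fold, adjusted p = 0.0325). The partner subunit Cyba rose by 0.63 ± 0.11 (adjusted p = 0.0416), a call lost without NUP98-JARID1A line 2 (0.0543) and with array medians subtracted (0.0564). Ncf1 and Ncf4, the cytosolic organisers, changed by 0.6 ± 0.12 (adjusted p = 0.052) and 1.1 ± 0.25 (adjusted p = 0.0678) and did not pass.

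G protein-coupled receptors moved in both directions. These receptors read small ligands outside the cell and signal through heterotrimeric G proteins. Of 30 tested, among them receptors for nucleotides, lipids, complement and proteases and adhesion receptors, 7 rose and 4 fell. These calls are 36.7% of the list, against 7.04% of all genes tested, and its median change was 0.8. Measured against line 4, 3 rose and 2 fell, with a median change of 0.52. P2ry6, a receptor for uridine diphosphate, measured 5.47, 6.1, 5.89 and 7.14 in untreated lines 1 to 4 and 10.95 and 11.18 in treated lines 1 and 3. It rose by 5.39 ± 0.69, or 41.8-fold (adjusted p = 0.0195), and both treated arrays were above all untreated lines by a wide gap. Gpr183, which binds oxysterols and guides cell position, measured 9.07, 9.11, 9.03 and 10.14 in untreated lines 1 to 4 and 11.76 and 11.72 in treated lines 1 and 3 and rose by 2.69 ± 0.32 (adjusted p = 0.0166). S1pr2, a sphingosine phosphate receptor, measured 6.89, 6.85, 7.14 and 8.27 in untreated lines 1 to 4 and 9.48 and 9.43 in treated lines 1 and 3 and rose by 2.44 ± 0.16 (adjusted p = 0.00457), and P2ry12, an adenosine diphosphate receptor, rose by 2.05 ± 0.27 (adjusted p = 0.0207).

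The thrombin receptor went the other way. F2r measured 9.71, 9.36, 9.62 and 8.78 in untreated lines 1 to 4 and 7.62 and 7.34 in treated lines 1 and 3 and fell by 2.18 ± 0.2 (adjusted p = 0.00966). Adgrg3, an adhesion receptor, fell by 1.61 ± 0.22 (adjusted p = 0.023), the lipid receptor P2ry10 by 1.11 ± 0.14 (adjusted p = 0.0197) and the proton sensor Gpr65 by 1.25 ± 0.15 (adjusted p = 0.0177, and 0.105 without the line as a block). Gpr65 in untreated line 4, at 4.98, was as low as in the treated arrays, at 5.25 and 5.04. The fit without the block puts untreated lines 2 and 4 in a group of their own, so their difference enters its spread. The orphan receptor Gpr25, among the 20 largest falls over all genes, measured 10.39, 10.37, 10.41 and 9.91 in untreated lines 1 to 4 and 6.95 and 6.9 in treated lines 1 and 3 and fell by 3.47 ± 0.11 (11.1-fold, adjusted p = 0.00149). Line 4 differed from untreated lines 1 to 3 by -0.48, and with it as the only control the change was -2.98 (adjusted p = 0.000155).

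Chemokine receptors guide leukocytes along gradients, and 2 of 8 tested rose while 0 fell (25.0%, against 7.04% of all genes tested). Cx3cr1, the fractalkine receptor of monocytes and microglia, measured 6.84, 7.04, 7.2 and 8.06 in untreated lines 1 to 4 and 10.57 and 10.6 in treated lines 1 and 3 and rose by 3.57 ± 0.33 (11.9-fold, adjusted p = 0.0104). Ccr1 measured 8.43, 8.29, 8.44 and 8.21 in untreated lines 1 to 4 and 10.58 and 10.64 in treated lines 1 and 3 and rose by 2.17 ± 0.34 (adjusted p = 0.0289), with line 4 no higher than the rest. Ccr9, a gut-homing receptor, had a change of -2.22 ± 0.8 that did not pass (adjusted p = 0.183), and its 5 probe sets gave changes from -2.68 to -0.92.

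Among cytokine and growth factor receptors both rises and falls passed. Of 41 tested, 9 rose and 4 fell (31.7%, against 7.04% of all genes tested), with a median change of 0.22. Kit, the receptor for the stem cell factor in the medium, measured 10.52, 10.4, 10.71 and 9.91 in untreated lines 1 to 4 and 8.71 and 8.56 in treated lines 1 and 3 and fell by 1.98 ± 0.16 (3.94-fold, adjusted p = 0.00754). Gfra1, the co-receptor for a neurotrophic factor of glia, measured 10.6, 10.33, 10.95 and 9.77 in untreated lines 1 to 4 and 7.37 and 7.04 in treated lines 1 and 3 and fell by 3.57 ± 0.19 (11.9-fold, adjusted p = 0.00353), and its 3 probe sets gave -3.57 to -1.95. Il18r1, a subunit of the interleukin 18 receptor, fell by 1.89 ± 0.23 (adjusted p = 0.0174). In all 3 genes the treated arrays were below the 4 untreated lines.

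The rises included receptors for myeloid cytokines. Csf1r, the macrophage colony-stimulating factor receptor, measured 7.87, 7.77, 7.71 and 10.13 in untreated lines 1 to 4 and 12.67 and 12.71 in treated lines 1 and 3 and rose by 4.9 ± 0.33 (29.9-fold, adjusted p = 0.00507). Csf2rb, the shared beta chain of the receptors for interleukin 3, interleukin 5 and granulocyte-macrophage colony-stimulating factor, measured 8.18, 8.45, 7.95 and 9.17 in untreated lines 1 to 4 and 10.79 and 11.03 in treated lines 1 and 3 and rose by 2.85 ± 0.22 (adjusted p = 0.00727). Il13ra1, a chain of the receptors for interleukins 4 and 13, measured 5.59, 5.76, 5.65 and 6.31 in untreated lines 1 to 4 and 8.76 and 8.64 in treated lines 1 and 3 and rose by 3.08 ± 0.35 (adjusted p = 0.0158), with 5 probe sets between 0.6 and 3.68. The interleukin 6 receptor Il6ra rose by 2.43 ± 0.24 (adjusted p = 0.0113) and the leukemia inhibitory factor receptor Lifr by 2.33 ± 0.25 (adjusted p = 0.0129). With line 4 as the only control 7 members rose and 3 fell, among them Kit, by 1.28 (adjusted p = 0.0183), and Gfra1, by 2.57 (adjusted p = 0.00675).

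**Figure D4:**
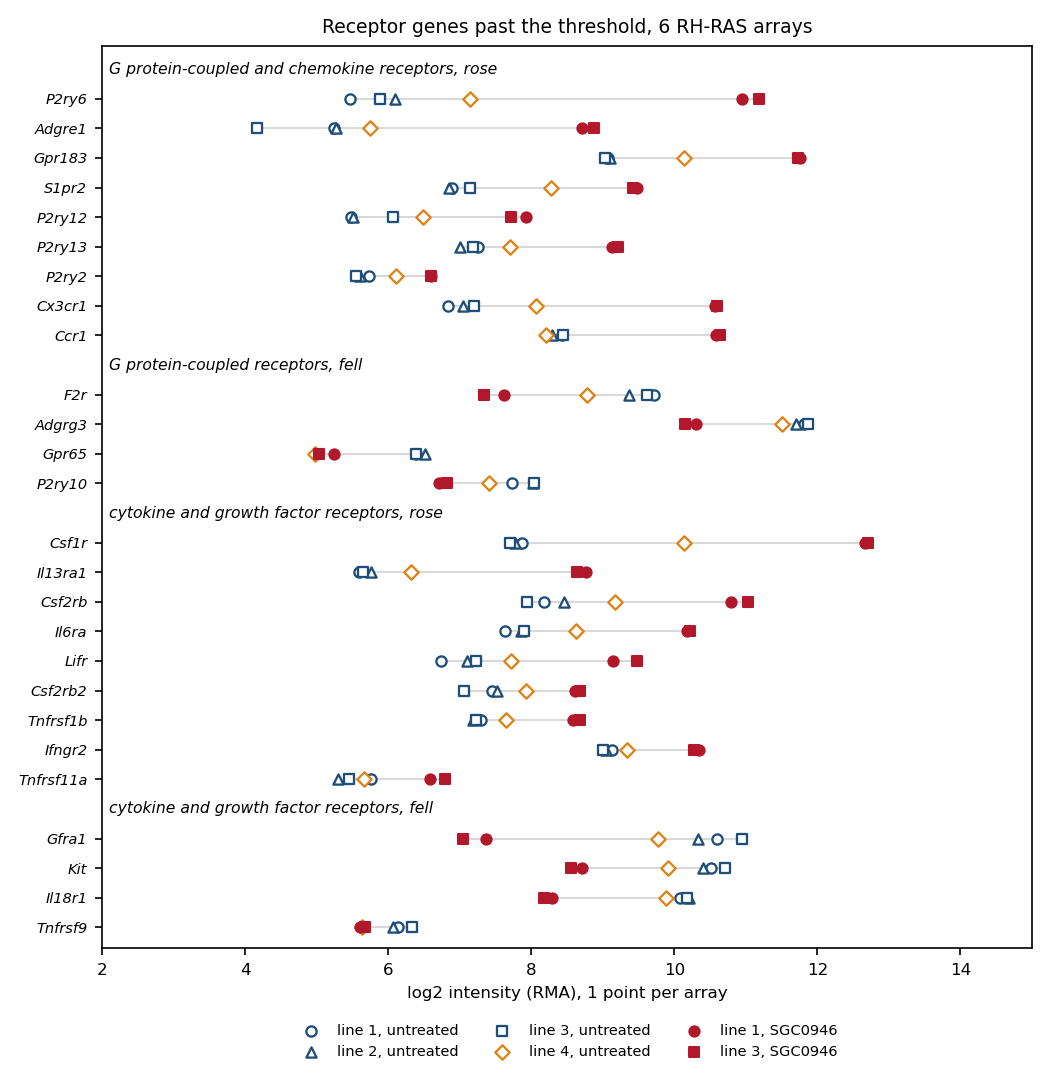
Log2 intensity of the G protein-coupled, chemokine, cytokine and growth factor receptor genes past the threshold, 1 row per gene and 1 point per array: open symbols are untreated lines 1 to 4 (line 4 in orange), filled red symbols are lines 1 and 3 with SGC0946. P2ry6 is at 7.14 or lower in the untreated lines and at 10.95 and 11.18 treated, while Gfra1 goes from 9.77 or higher to 7.37 and 7.04.

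Receptors that sense microbes and immune complexes rose where they passed. Of 33 pattern recognition, scavenger and Fc receptors tested, 11 rose and 0 fell (33.3%, against 7.04% of all genes tested). The median change was 1.67, and 31 of 33 were higher in both lines. Tlr13, a sensor of bacterial ribosomal RNA, measured 5.38, 5.47, 5.37 and 6.53 in untreated lines 1 to 4 and 9.09 and 9.21 in treated lines 1 and 3 and rose by 3.78 ± 0.33 (13.7-fold, adjusted p = 0.00927). The lipopeptide sensors Tlr2 and Tlr1 rose by 2.66 ± 0.16 (adjusted p = 0.00408) and 3.47 ± 0.41 (adjusted p = 0.0168). Mrc1, the mannose receptor whose promoter is printed above, measured 4.51, 4.59, 4.5 and 5.68 in untreated lines 1 to 4 and 9.44 and 9.77 in treated lines 1 and 3 and rose by 5.1 ± 0.76 (34.3-fold, adjusted p = 0.0265). Untreated values of 4.5 to 5.68 are low on this scale, where RMA compresses differences, so the size of that rise may be understated. Against line 4 alone 8 of the 33 rose, with a median change of 1.12.

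The cadherin and junction list held 1 large fall. Cdh1, which encodes E-cadherin, the adhesion protein of epithelia that some blood progenitors also carry, measured 8.82, 8.93, 9.67 and 6.26 in untreated lines 1 to 4 and 4.48 and 4.61 in treated lines 1 and 3 and fell by 4.7 ± 0.2, or 26-fold (adjusted p = 0.00249). Untreated line 4 was already lower than the other lines, and against it the change was -1.72 (adjusted p = 0.0418). Of the 11 genes of the list tested, 1 other passed, so that 18.2% did, against 7.04% of all genes tested. It was Ctnna1, an alpha-catenin that ties cadherins to actin, which rose by 0.68 ± 0.1 (adjusted p = 0.0273, and 0.181 with probe sets averaged). Of 21 integrin genes 1 rose and 2 fell (14.3%, against 7.04% of all genes tested). Of 22 selectin, tetraspanin and immunoglobulin-type adhesion genes 2 rose and 0 fell (9.09%). The latter were Spn, the sialophorin of leukocytes, by 0.77 ± 0.12 (adjusted p = 0.0315) and the tetraspanin Cd53 by 0.73 ± 0.12 (adjusted p = 0.0365). Itgam, the alpha chain of the complement receptor integrin, measured 6.52, 6.02, 6.84 and 6.68 in untreated lines 1 to 4 and 8.76 and 8.99 in treated lines 1 and 3 and rose by 2.2 ± 0.32 (adjusted p = 0.0257). Itgae, which binds E-cadherin, measured 6.84, 6.83, 6.84 and 5.49 in untreated lines 1 to 4 and 4.9 and 4.94 in treated lines 1 and 3 and fell by 1.91 ± 0.15 (adjusted p = 0.00686). Against line 4 alone Itgae changed by -0.56 (adjusted p = 0.113).

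The guidance and matrix genes that passed all rose. Nrp1, a co-receptor for semaphorins and vascular growth factor, measured 8.52, 8.59, 9.19 and 10.33 in untreated lines 1 to 4 and 11.61 and 11.69 in treated lines 1 and 3 and rose by 2.79 ± 0.23 (6.92-fold, adjusted p = 0.00754), with 4 probe sets between 0.78 and 3.11. Plxnd1, its plexin partner, measured 7.1, 6.74, 6.58 and 6.89 in untreated lines 1 to 4 and 8.57 and 8.42 in treated lines 1 and 3 and rose by 1.65 ± 0.17 (adjusted p = 0.0114). These were the 2 that passed of 15 guidance genes tested (13.3%, against 7.04% of all genes tested). Among 19 genes of matrix and pericellular proteolysis 5 rose and 0 fell (26.3%), with a median change of 0.56. All 19 were higher in both lines. F13a1, the transglutaminase of clot stabilisation, measured 6.55, 6.56, 6.32 and 8.15 in untreated lines 1 to 4 and 9.8 and 9.92 in treated lines 1 and 3 and rose by 3.43 ± 0.29 (adjusted p = 0.00861). Cst3, a secreted cysteine protease inhibitor, rose by 1.65 ± 0.12 (adjusted p = 0.00607). Tgfbi, a secreted integrin ligand, rose by 5.02 ± 0.9 (32.4-fold, adjusted p = 0.0408), and its call was lost without NUP98-JARID1A line 1 (adjusted p = 0.0527). Plau, urokinase, did not pass, with a change of 3.61 ± 0.82 (adjusted p = 0.0664).

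Of 20 genes of the RAS-MAPK core tested, 1 rose and 2 fell (15%, against 7.04% of all genes tested), with a median change of -0.07. Rasgrp2, an exchange factor that loads GTP onto Rap and RAS proteins, measured 10.27, 10.2, 10.21 and 9.79 in untreated lines 1 to 4 and 8.08 and 7.96 in treated lines 1 and 3 and fell by 2.21 ± 0.1 (4.64-fold, adjusted p = 0.00249). All 4 untreated lines were above both treated arrays, line 4 included, and against line 4 the change was -1.76 (adjusted p = 0.00167). Its 4 probe sets gave changes from -2.21 to -0.42. Rasa2, a GTPase-activating protein that turns RAS off, fell by 0.78 ± 0.12 (adjusted p = 0.0265). Gab2, a docking protein below cytokine receptors, rose by 1.45 ± 0.14 (adjusted p = 0.0113), with 3 probe sets between 0.43 and 1.45.

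Of 21 phosphoinositide 3-kinase genes 2 rose and 0 fell, 9.52% against 7.04% of all genes tested, with a median change of 0.0. Pik3r5, a regulatory subunit of the kinase that G protein-coupled receptors activate, measured 5.31, 5.8, 5.47 and 5.62 in untreated lines 1 to 4 and 7.18 and 7.18 in treated lines 1 and 3 and rose by 1.79 ± 0.17 (3.45-fold, adjusted p = 0.0113). Pik3r6, the alternative regulatory subunit of the same kinase, rose by 0.68 ± 0.11 (adjusted p = 0.0318). Of 29 Src-family and immunoreceptor genes 4 rose and 2 fell (20.7%, against 7.04% of all genes tested). When these were measured against line 4, 2 rose and 0 fell in limma, with 3 lower at an unadjusted p under 0.05. The exchange factor Vav3 rose by 1.46 ± 0.17 (adjusted p = 0.0162), and the adaptor Blnk by 1.31 ± 0.16 (adjusted p = 0.0183). Blnk was lower in line 4, at 6.21, than in the other untreated lines, so that its change against line 4 was larger, 2.07 (adjusted p = 0.0074).

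In the G protein, cyclic AMP and protein kinase C list 2 of 32 rose and 3 fell (15.6%, against 7.04% of all genes tested). Measured against line 4, 0 passed in limma, where 8 higher and 4 lower had an unadjusted p under 0.05. Rgs18, which shortens G protein signals in blood cells, fell by 1.03 ± 0.13 (adjusted p = 0.0186), and Gnai2, the main inhibitory alpha subunit of leukocytes, rose by 0.68 ± 0.11 (adjusted p = 0.0289). Prkca, a classical protein kinase C, measured 9.08, 9.13, 9.06 and 8.03 in untreated lines 1 to 4 and 6.93 and 6.97 in treated lines 1 and 3 and fell by 2.12 ± 0.39 (adjusted p = 0.0428), a call lost without NUP98-JARID1A line 3 (0.071) and with probe sets averaged (0.0593). Of 18 JAK-STAT genes 1 rose and 0 fell (5.56%, against 7.04% of all genes tested). The gene that rose was Socs3, the feedback inhibitor of interleukin 6 signalling, by 1.18 ± 0.21 (adjusted p = 0.0409, and 0.0746 with probe sets averaged).

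The TGF-beta, Notch and WNT list had more falls than rises, 5 against 1 of 29 (20.7%, against 7.04% of all genes tested). The median change of the list was -0.14. Tgfb3, a ligand of the family, measured 7.02, 7.27, 7.29 and 5.78 in untreated lines 1 to 4 and 5.11 and 4.9 in treated lines 1 and 3 and fell by 2.15 ± 0.16 (adjusted p = 0.00607). Hes1, a repressor that Notch switches on, measured 8.01, 8.06, 8.07 and 7.18 in untreated lines 1 to 4 and 6.16 and 6.03 in treated lines 1 and 3 and fell by 1.94 ± 0.22 (adjusted p = 0.0157). The falls of Smad3, Smad5 and Fzd7 were between 0.78 and 0.81, namely 0.78 ± 0.15 (adjusted p = 0.0436), 0.81 ± 0.13 (adjusted p = 0.0338) and 0.81 ± 0.12 (adjusted p = 0.0282). Without NUP98-JARID1A line 3 these calls were lost (adjusted p = 0.0644, 0.0533 and 0.0512) and 3 of the list fell. With probe sets averaged Smad3 and Smad5 were lost as well (adjusted p = 0.101 and 0.129). Dab2, an endocytic adaptor in TGF-beta and WNT signalling whose promoter is printed above, measured 6.11, 5.66, 5.96 and 7.69 in untreated lines 1 to 4 and 10.996 and 11.14 in treated lines 1 and 3 and rose by 5.03 ± 0.72 (32.7-fold, adjusted p = 0.0249). Against line 4 alone 0 of the list fell in limma at the adjusted threshold, with 6 lower at an unadjusted p under 0.05, and Dab2 changed by 3.38 (adjusted p = 0.065).

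Among transcription factors, more myeloid members rose than fell, and more progenitor and other-lineage members fell than rose. Of 30 myeloid factors 8 rose and 1 fell (30.0%, against 7.04% of all genes tested), with a median change of 0.78. Of 34 progenitor and other-lineage factors 1 rose and 5 fell (17.6%), with a median change of -0.29. In the latter list 0 rose and 3 fell when measured against line 4. Klf4, a zinc finger factor of monocytes, measured 5.32, 5.65, 5.41 and 6.72 in untreated lines 1 to 4 and 9.7 and 10.17 in treated lines 1 and 3 and rose by 4.57 ± 0.15 (23.7-fold, adjusted p = 0.00149). It was the 1 gene of 13 in its family that passed (7.69%, against 7.04% of all genes tested), and both probe sets rose, by 3.53 and 4.57. Spi1, which encodes PU.1, a master regulator of myeloid cells, measured 9.99, 9.94, 10.09 and 10.12 in untreated lines 1 to 4 and 11.19 and 11.31 in treated lines 1 and 3 and rose by 1.21 ± 0.12 (adjusted p = 0.0113). Line 4 was not apart in Spi1, and the change against it was 1.12 (adjusted p = 0.0118).

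Cebpd, a C/EBP factor of mature myeloid cells, measured 8.07, 8.26, 8.04 and 9.02 in untreated lines 1 to 4 and 10.43 and 10.37 in treated lines 1 and 3 and rose by 2.35 ± 0.24 (adjusted p = 0.0114). Its 2 probe sets gave changes of 0.43 and 2.35. Irf8, needed for monocytes and dendritic cells, measured 9.83, 9.79, 10.12 and 10.85 in untreated lines 1 to 4 and 11.78 and 11.78 in treated lines 1 and 3 and rose by 1.8 ± 0.2 (adjusted p = 0.014). Zeb2, a zinc finger repressor, rose by 2.08 ± 0.21 (adjusted p = 0.0114), with 5 probe sets between 0.57 and 2.08, and Cebpb rose by 1.33 ± 0.22 (adjusted p = 0.0343). Mitf, the factor of melanocytes, mast cells and osteoclasts, rose by 1.63 ± 0.24 (adjusted p = 0.0264). Runx3 fell by 1.74 ± 0.27 (adjusted p = 0.0297, and 0.0581 without NUP98-JARID1A line 3). For the macrophage factor Maf the change of 3.93 ± 1.29 was outside the threshold (adjusted p = 0.148). The lowest change in the list of myeloid factors, -2.45, was outside it as well. The count of myeloid factors that rose was 14 without NUP98-JARID1A line 1 and 3 with line 4 as the only control.

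Among the factors that fell, Gata3, a regulator of T and innate lymphoid cells, measured 6.85, 6.93, 7.18 and 6.31 in untreated lines 1 to 4 and 4.74 and 4.63 in treated lines 1 and 3 and fell by 2.33 ± 0.19 (5.03-fold, adjusted p = 0.00745). Tox, an HMG-box factor of lymphoid development, measured 8.29, 8.74, 9.02 and 7.3 in untreated lines 1 to 4 and 6.51 and 6.47 in treated lines 1 and 3 and fell by 2.16 ± 0.22 (adjusted p = 0.0116). Nfe2, a factor of the erythroid and megakaryocyte lineages, fell by 1.39 ± 0.16 (adjusted p = 0.0154). Myb, which sustains progenitor self-renewal, measured 13.27, 13.21, 13.18 and 13.19 in untreated lines 1 to 4 and 12.19 and 12.19 in treated lines 1 and 3 and fell by 1.03 ± 0.13 (adjusted p = 0.0174). Its 4 untreated values lay within 0.1 of each other and both treated arrays were lower by about 1 unit. Lmo2, a bridging protein of blood stem cell factor complexes, rose by 1.3 ± 0.12 (adjusted p = 0.00948). Of 20 nuclear receptors 2 fell and 0 rose (10.0%, against 7.04% of all genes tested). The thyroid hormone receptor Thra fell by 0.94 ± 0.14 (adjusted p = 0.027).

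**Figure D5:**
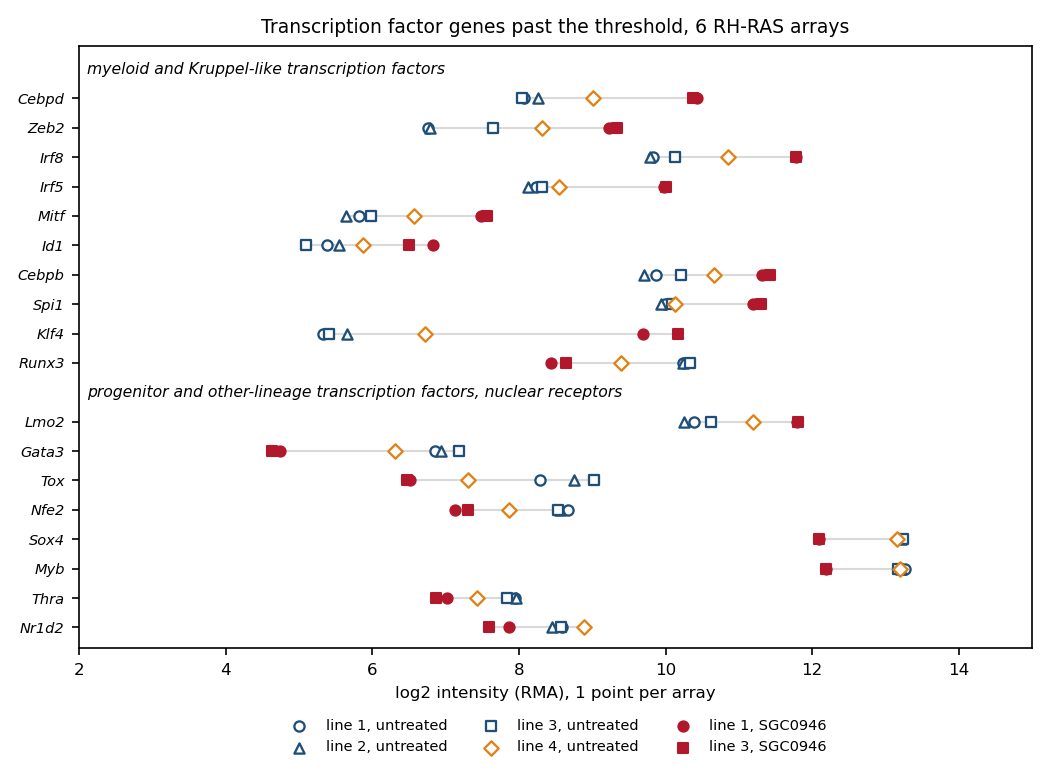
Log2 intensity of the transcription factor genes past the threshold, 1 row per gene and 1 point per array: open symbols are untreated lines 1 to 4 (line 4 in orange), filled red symbols are lines 1 and 3 with SGC0946. Klf4 is at 6.72 or lower in the untreated lines and at 9.7 and 10.17 treated, and Gata3 goes from 6.31 or higher to 4.74 and 4.63.

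Marker genes of cell types were measured beside these lists. Of the monocyte and macrophage markers 9 were tested and 8 rose (88.9%, against 7.04% of all genes tested). Their median change was 4.09. Their log2 values summed to 68.65 to 69.86 in untreated lines 1 to 3, 82.97 in line 4 and 102.4 and 102.92 in the treated arrays. All 8 pan-leukocyte markers were higher in both lines, 2 of them past the threshold (25.0%). Of 7 fibroblast markers 1 reached the filter on low values, and it did not pass. Of 10 neutrophil granule markers 1 rose (10.0%, near the 7.04% of all genes tested), and 8 were below the array median on all 6 RH-RAS arrays. T and NK cell markers summed to 58.17 to 59.13 in untreated lines 1 to 3, 52.17 in line 4 and 46.1 and 46.2 treated. Of these 8 markers 2 fell (25.0%), Gzma among them, with a median change of -0.58 and a range from -5.25 to 0.16. Of 6 B cell markers 2 fell (33.3%), but the median change was only -0.05, with a range from -3.5 to 0.52. Of 3 mast cell and basophil markers tested 0 passed, with a median change of -0.88. Their log2 values summed to 19.42 to 19.59 in untreated lines 1 to 3, 17.95 in line 4 and 16.85 and 16.25 in the treated arrays, and Cpa3, a mast cell carboxypeptidase, changed by -2.24 ± 0.49 (adjusted p = 0.0623). Of 2 erythroid markers tested 0 passed in limma, with 0 at an unadjusted p under 0.05. Of 17 proliferation genes 0 passed in limma, with 1 at an unadjusted p under 0.05, 1 in the fit without the line as a block and 3 in the fit of the RH-RAS arrays alone. These are bulk cultures, in which more cells of a type and more RNA per cell cannot be told apart. Whether a change in the mix of cells has a part in any list above was not tested.

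The changes in lines 1 and 3 differed by at least 0.5 in 403 of the 11993 genes tested (3.36%) and by at least 1 in 22 (0.183%), and in 0 by 1.5 or more. Most genes tested changed little, so the 857 genes with a mean change of at least 2-fold were also counted: in these the lines differed by a median of 0.19, by at least 0.5 in 112 (13.1%) and by at least 1 in 11 (1.28%). The threshold itself favours genes in which the lines are alike. With 1 pair per line these differences have no replicate and were not tested. The largest, in P2rx3, an ATP-gated channel, set a change of -0.26 in line 1 beside -1.73 in line 3, and Insm1, a neuroendocrine factor, set -0.21 beside -1.6. Neither gene passed the threshold. Of the 6 largest differences, Khdrbs3, Adgre1 and Snx24 passed it. Khdrbs3, an RNA-binding protein, changed by -2.77 in line 1 and -4.01 in line 3. Adgre1, the F4/80 antigen, changed by 3.47 and 4.7, and Snx24, a sorting nexin, by 3.46 and 2.23. In Adgre1 and Snx24 the lines differed before treatment, at 5.24 and 4.17 and at 5.0 and 6.22, and the treated arrays came within 0.2 of each other.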

How the data were processed

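The authors deposited RMA log2 values on Affymetrix Mouse Genome 430 2.0 arrays, per the submitters' processing notes. RMA works by background correction, quantile normalisation and a summary per probe set. Its version is not given in the sources used here. No further normalisation was applied. Of 45101 probe sets, 34958 had 1 gene symbol in the platform annotation, 932 several and 9211 none listed. For each gene the probe set of highest mean was taken, and the gene was tested if it exceeded the median of the array on 2 or more of 10 arrays. limma 3.58.1 in R 4.3.3 (lmFit, eBayes, Benjamini-Hochberg, checked on simulated data) fitted all 10 arrays with a coefficient for each RH-RAS line, 1 for MLL-AF9, 1 for the NUP98-JARID1A lines as a group, and 1 for treatment, which leaves 3 residual degrees of freedom. The treated and untreated arrays of lines 1 and 3 are paired because they come from the same line. The residual spread therefore pools the disagreement of the pairs in lines 1 and 3 with the differences between the 3 independent NUP98-JARID1A lines, and a gene variable among those has a larger error. The number of arrays limits the precision, and p-values measure the spread between these single arrays.

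Members and gene lists were chosen with earlier results of these data known, so list counts are descriptions. One gene list is not reported here. Named genes were drawn from the largest changes in each list, up to 5 members past the threshold and 2 not past it. The 20 largest rises and falls, the 6 largest differences between lines, and Dot1l were added to these. Not all genes picked by this rule are described, and further members were named after their values were seen. Promoters are RefSeq windows, GRCm38.p6. Alternatives were no block, RH-RAS arrays alone, other filters, probe sets averaged, medians subtracted, an intensity trend, line 4 as control and leaving out each array.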

Additional observations from a re-analysis of the deposited data

Results flagged for a closer look

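Untreated line 4 was far from untreated lines 1 to 3 in 35 of the 131 genes named, and line 3 in 1, by the gap to the nearest line as a share of the range (Dixon's 95% limit for 4 samples). Chance alone gives such a gap in about 1 of 20 groups, and it was seen in 7.14% of all genes tested. In 34 of the 35 genes line 4 lay on the side of the treated arrays, and the exception was Pik3r6.

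Line 4 was the low line in 22 genes. Among hypoxia-type and glycolysis genes it measured 7.96 in Ak4, 9.75 in Ankrd37, 12.22 in Bnip3, 11.33 in Egln3, 10.46 in Kdm3a, 7.99 in Aldoc, 13.68 in Pgk1, 12.65 in Pkm and 10.99 in Slc2a1. Among receptors and adhesion genes it measured 9.91 in Gpr25, 4.98 in Gpr65, 12.79 in Tfrc and 5.49 in Itgae. Signalling genes with a low line 4 were Hes1 at 7.18, Pik3r6 at 7.99, Prkca at 8.03 and Rasgrp2 at 9.79. Low factors and other genes were Nfe2 at 7.87, Runx3 at 9.39, Hoxa9 at 12.37, Angpt1 at 8.66 and Selenbp1 at 7.76. Line 4 was the high line in 13 genes. It measured 4.91 in Arg2, 12.75 in Fh1, 12.05 in Ctss, 12.31 in Ctsz, 11.72 in Grn and 11.4 in Lgmn. Receptors with a high line 4 were Csf1r at 10.13, Gpr183 at 10.14, Mrc1 at 5.68, Tlr13 at 6.53 and Tlr2 at 7.89. The remaining genes were F13a1 at 8.15 and Ms4a6d at 7.85. Line 3 was the outlying line in Insm1, at 7.19.

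In 3 genes the change in line 1 had the opposite sign to that in line 3. It was 0.26 in Dot1l, -0.03 in Epas1 and 0.02 in Hif1a, and the difference between the lines was not tested.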

How the results depend on the processing

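The count of 844 genes needs both pairs and moves with how the spread is estimated. Lines 1 and 3 are each the same cell line with and without inhibitor, so the line was used as a block. Without the replicate block 1434 genes passed (820 up, 614 down), 794 of them among the 844. That fit groups untreated lines 2 and 4 apart from lines 1 and 3, so the difference between lines 2 and 4 enters its spread. In the RH-RAS arrays alone with the block 4496 passed (2434 up, 2062 down), including all 844, and in RH-RAS lines 1 to 3 without the block 4330 passed (2368 up, 1962 down). The former fit has 1 residual degree of freedom and the latter 3, as many as the fit behind the 844. With untreated line 4 as the only control, an alternative chosen after seeing the data, 318 passed (214 up, 104 down). Leaving out 1 array at a time gave 0 to 1231 genes, 0 to 700 up and 0 to 531 down: leaving out any array of lines 1 and 3 leaves a single pair and 0 calls, and leaving out NUP98-JARID1A line 1 gives the highest counts. No filter (761), a filter on the 4 arrays compared (1010), probe sets averaged (824), array medians subtracted (866) and an intensity trend (971) stayed within 1.5 times of 844. Rises were 54.9% of calls, and 48.5% with array medians subtracted.

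Of the named genes that passed, 8 lost the call with probe sets averaged, 1 without the replicate block, 2 without the filter, 1 with medians subtracted, and 1, 4 and 6 without NUP98-JARID1A lines 1, 2 and 3. With line 4 as the only control 57 lost the call, and Gpr65 changed sign, to 0.17. The other sign changes were in genes that did not pass: Dot1l was -0.0084 with probe sets averaged and ranged from -0.13 to 0.26 without 1 array, Epas1 was -0.047 with medians subtracted and ranged from -0.034 to 0.049, and Hif1a ranged from -0.23 to 0.015. The causes were not tested. RMA gives no detection calls, so changes that start or end at low intensity are imprecise in size. Where no range of probe sets is given above, the probe sets of a gene were not always alike. Their changes ran from -1.74 to -0.49 in Runx3, from -0.81 to -0.07 in Fzd7 and from 0.97 to 2.44 in S1pr2. In Dab2 they ran from 1.83 to 5.22 and in Ctsb from 0.5 to 3.0.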

Other observations

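Several of the largest changes over all genes fall outside the gene lists. Ms4a6d, a tetraspan membrane protein of macrophages, measured 5.56, 5.67, 5.32 and 7.85 in untreated lines 1 to 4 and 10.83 and 11.16 in treated lines 1 and 3 and rose by 5.56 ± 0.51 (adjusted p = 0.00987 in limma), but its 3 probe sets gave changes from 0.08 to 5.56. Rin2, an exchange factor for the endosomal GTPase Rab5, measured 4.19, 3.9, 4.14 and 5.22 in untreated lines 1 to 4 and 7.77 and 8.23 in treated lines 1 and 3 and rose by 3.84 ± 0.31 (adjusted p = 0.00754). Aif1, an actin-binding protein of macrophages and microglia, rose by 3.85 ± 0.53 (adjusted p = 0.0226). Cttnbp2nl, a protein that binds cortactin, rose by 4.78 ± 0.71 (adjusted p = 0.0267), and line 4 stood at 8.81 against 6.08 to 6.7 in the other untreated lines.

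Among the falls, Gzma, a member of the T and NK cell marker list whose promoter is printed above, had the largest. It measured 10.16, 10.5, 10.02 and 7.91 in untreated lines 1 to 4 and 4.96 and 4.73 in treated lines 1 and 3 and fell by 5.25 ± 0.11 (37.9-fold, adjusted p = 0.000784). Selenbp1, a selenium-binding methanethiol oxidase, measured 10.23, 10.03, 10.44 and 7.76 in untreated lines 1 to 4 and 6.35 and 6.12 in treated lines 1 and 3 and fell by 4.1 ± 0.15 (17.2-fold, adjusted p = 0.00149), alike in both of its probe sets. Trib2, a pseudokinase that promotes degradation of C/EBP alpha, fell by 3.5 ± 0.22 (adjusted p = 0.00457), with 3 probe sets between -3.5 and -0.0078. Igf2r encodes the receptor that carries mannose phosphate-tagged enzymes to the lysosome. It measured 8.19, 8.28, 7.83 and 7.0 in untreated lines 1 to 4 and 4.46 and 5.07 in treated lines 1 and 3 and fell by 3.24 ± 0.24 (9.47-fold, adjusted p = 0.0059), in both probe sets, while 9 lysosome genes rose. Tfdp2, the partner of E2F factors, fell by 3.11 ± 0.33 (adjusted p = 0.0131), with 4 probe sets between -3.11 and -0.44. Angpt1, the ligand of the Tie2 receptor, measured 9.17, 9.2, 9.19 and 8.66 in untreated lines 1 to 4 and 6.28 and 5.85 in treated lines 1 and 3 and fell by 3.12 ± 0.4 (adjusted p = 0.0191). Against line 4 alone Igf2r changed by -2.24 (adjusted p = 0.0118) and Selenbp1 by -1.53 (adjusted p = 0.0129).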
